A study of Mus musculus with 10 samples.

Results

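Elastic fibre and microfibril genes were measured by RNA sequencing in skeletal stem and stromal cells of the mouse, in bone marrow, in periosteum and in the marrow of transplanted femurs. The genes are the elastin gene Eln, the fibrillin genes Fbn1 and Fbn2, the microfibril-associated genes Mfap2 and Mfap4, the fibulin genes Fbln1, Fbln2 and Fbln5, and Emilin1. They were chosen by name, as the rows of the deposited table with these symbols, and all 9 were found among 15078 genes. All 9 passed the filter for low values, a mean of at least 10 over the 10 libraries, which 13644 genes passed.

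Cells negative for CD45, Ter119 and CD31 and positive for CD51 and CD200 were sorted in all 3 groups, from mice on a C57BL/6J background. The study's methods give mice of 6 to 12 weeks unless stated otherwise, and the graft cells were collected months after that age. The BM-MSC group (mesenchymal stem cells of the marrow, n = 3) and the P-SSC group (skeletal stem cells of the periosteum, the membrane that covers the bone, n = 3) came from untreated wild-type mice at steady state. Their titles read host, steady state, and do not say if host means a mouse that carried a graft. The graft BM-MSC group (n = 4) was additionally positive for Tomato and came from the marrow of Postn Cre-ER;Rosa26 LSL-tdTomato femurs (labelled POSTN-CRE) 5 months after subcutaneous transplantation into wild-type recipients, which were given 1 mg tamoxifen 2 times a day for 10 days, starting on day 2. Tamoxifen activates the recombinase in cells that use the Postn promoter, and Tomato then stays on in their descendants. Postn, which encodes periostin, is used by several cell types, osteoblasts and fibroblasts among them, so that the label is not specific to the periosteum. RNA came from 1000 to 3000 sorted cells, replicates held RNA of distinct mice, and RNA of 2 mice was combined in the libraries BM-MSC 2+4 and P-SSC 2+5. With steady-state mice taken as untreated, the grafts differed from both other groups in genotype, tamoxifen, transplantation, age at collection and Tomato gate at once. These differences cannot be told apart.

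Libraries held 15415421 to 25223295 reads, so that a floor of 3 reads was 0.119 to 0.195 ppm (reads per 1e6 reads). In graft BM-MSCs 9308 to 11674 genes had a read, fewest in graft BM-MSC 2, compared with 12217 to 13341 in the steady-state libraries. GC-rich genes were high in all 4 graft libraries and in P-SSC 4 and low in the other 5 libraries, so that this property and the difference between graft BM-MSCs and BM-MSCs cannot be told apart. Marrow stromal markers (Cxcl12, Lepr, Kitl, Adipoq, Ebf3 and Foxc1) summed to 40596 to 62551 ppm in BM-MSCs, 46234 to 52809 in graft BM-MSCs and 198 to 423 in P-SSCs. Cxcl12 made up most of the marrow sums, with normalized read counts of 560618 to 995477 in the marrow libraries. Foxc1 measured 3242 to 5795 in graft BM-MSCs and 263 to 392 in BM-MSCs, and Ebf3 565 to 1914 and 303 to 551. Periosteal markers (Postn, Fmod, Fn1, Thbs4, Ctsk and Prrx1) summed to 10488 to 13315 ppm in P-SSCs, 662 to 937 in BM-MSCs and 482 to 936 in graft BM-MSCs, in which Thbs4 was at 0. Ctsk and Prrx1 did not follow the sum. Ctsk had normalized read counts of 5001 to 8116 in P-SSCs, 3375 to 5411 in BM-MSCs and 5010 to 9680 in graft BM-MSCs. Those of Prrx1 were 1010 to 1875, 839 to 884 and 455 to 1448. Of Postn itself, graft BM-MSC 1 to 3 held no read and graft BM-MSC 4 had a normalized read count of 235. P-SSCs had 16558 to 24829 and BM-MSCs 3757 to 5041, so that the graft lay below steady-state marrow too. The median gene was lower by 0.47 on the log2 scale in graft BM-MSCs than in P-SSCs and by 0.53 than in BM-MSCs, and differed by 0.00 between P-SSCs and BM-MSCs.

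Elastic fibres give skin, lung, arteries and ligaments their recoil. They consist of a core of cross-linked elastin laid down on a scaffold of microfibrils, which are polymers of fibrillin with microfibril-associated glycoproteins on them, and fibulins and EMILIN-1 sit between core and scaffold. Microfibrils also occur without elastin and hold latent TGF-beta in the matrix, and fibrillin mutations are known to affect the skeleton.

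The comparison of graft BM-MSCs with P-SSCs asks what differs between cells labelled through Postn that were found in the marrow months later and periosteal cells at steady state. The comparison with BM-MSCs asks how they differ from marrow cells of bones that were not transplanted. P-SSCs expressed a set of elastic fibre transcripts led by Fbln2, Mfap4 and Mfap2, with Fbn1 and Eln, whereas both marrow populations expressed mainly Fbln5, followed by Mfap2 and Emilin1 and, in the graft, by Fbln1. Between graft BM-MSCs and P-SSCs, 4 of 9 members were lower in the graft (Eln, Fbn1, Mfap4 and Fbln2) and 1 was higher (Fbln5), by limma with Benjamini-Hochberg adjustment over all genes tested and a threshold of 0.05. Of all genes tested, 12% were called lower and 6.08% higher in that comparison. Between graft BM-MSCs and BM-MSCs, 1 of 9 members was called, Emilin1, which was lower in the graft, with 5.06% of all genes called lower and 2.61% higher. Between P-SSCs and BM-MSCs, 3 members were higher in P-SSCs (Fbn1, Mfap4 and Fbln2) and 2 lower (Fbln5 and Emilin1), with 4.57% and 4.58% of all genes called. The ranges of the libraries did not overlap for 5, 2 and 8 of the 9 members in these 3 comparisons, and for 26.6%, 25.0% and 30.9% of all genes tested. The 3 comparisons share libraries with one another and are not independent, and with sorted cells in bulk, fewer cells of a type and less RNA per cell cannot be told apart.

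**Figure D1:**
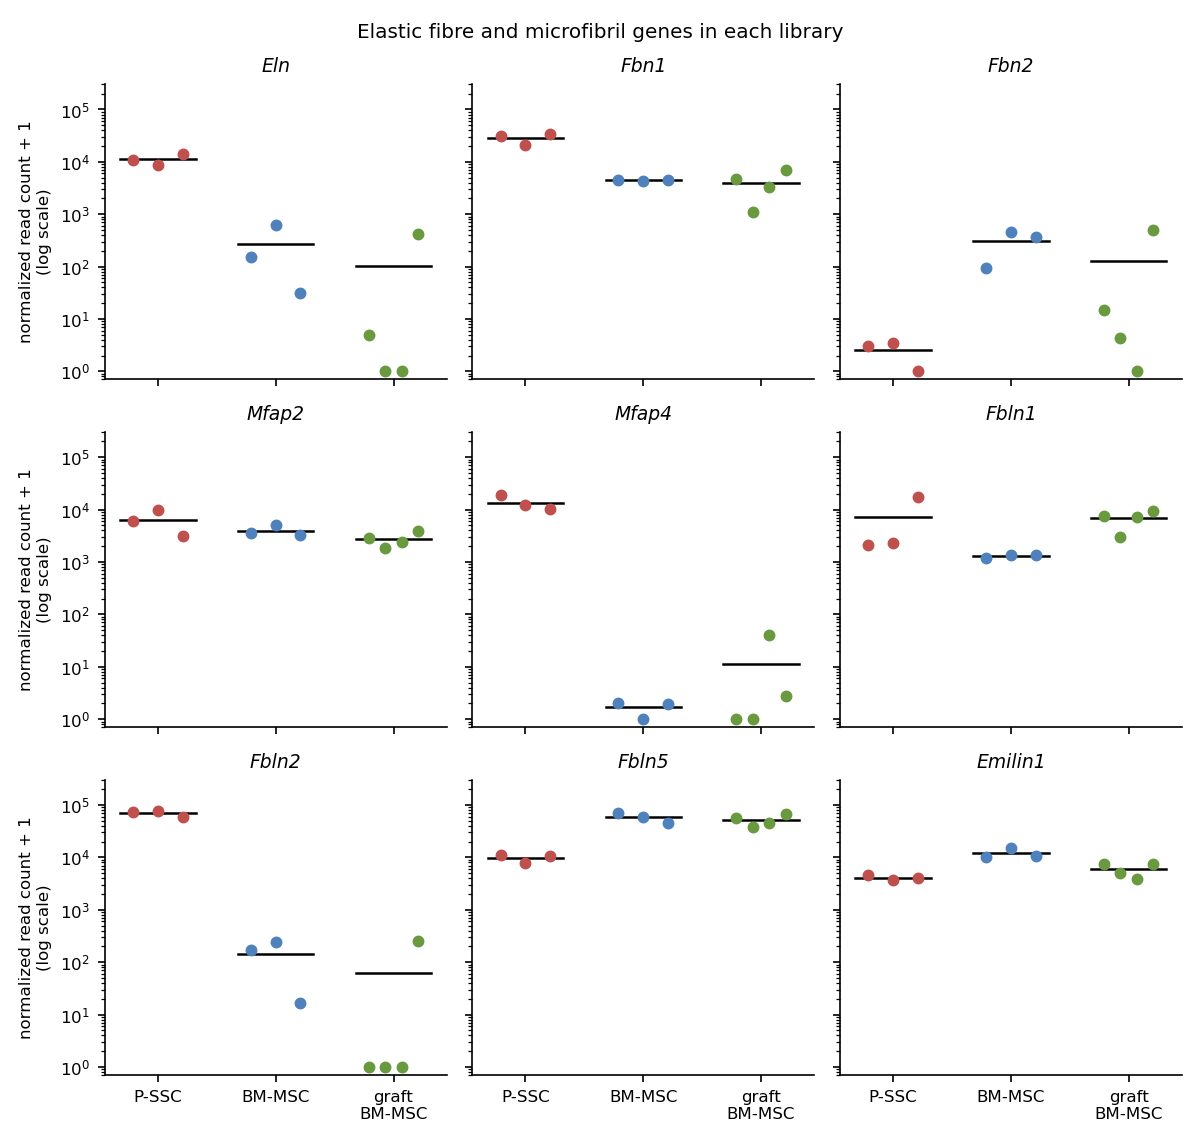
Normalized read count plus 1 of each of the 9 genes on a log axis, with 1 point per library and a bar at the group mean plus 1, in P-SSCs (n = 3), BM-MSCs (n = 3) and graft BM-MSCs (n = 4). Eln, Fbn1, Mfap4 and Fbln2 are highest in the 3 P-SSC libraries, Fbln5 is lowest there, and graft BM-MSC 4 stands above the other graft libraries for Eln, Fbn2 and Fbln2.

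Eln (ENSMUSG00000029675, GRCm38 chromosome 5, 134702593 to 134747323, minus strand) encodes tropoelastin, the monomer of the elastic core. Its normalized read counts, which are reads divided by the size factor of the library, were 10714, 8872 and 14201 in P-SSC 1, 2+5 and 4. They were 151, 617 and 30.6 in BM-MSC 1, 2+4 and 3, and 3.95, 0, 0 and 412 in graft BM-MSC 1 to 4. Every P-SSC library was far above every marrow library, 2 graft libraries had no Eln read, and the graft and steady-state marrow ranges overlapped. Eln was lower in graft BM-MSCs than in P-SSCs, with a log2 difference of -10.68 ± 1.92 (SE, adjusted p = 0.00312, limma) and 108-fold by the ratio of means, which was 8544 without graft BM-MSC 4. Log2 differences are of value + 1, a scale that shrinks changes between low values. With edgeR on the recovered reads the Eln difference was -6.66 and its adjusted p 0.0598, and with the GC class of the library in the fit it was -11.04 with an adjusted p of 0.0695. Between P-SSCs and BM-MSCs the ratio of means was 42.3 (124 without BM-MSC 2+4), and the difference of 6.26 (95% interval 1.72 to 10.81) did not pass the test (adjusted p = 0.0956), although the ranges did not overlap. Without graft BM-MSC 4, which enters the shared estimate of spread, the adjusted p of that difference was 0.00765. Graft BM-MSCs and BM-MSCs differed by -4.42 (interval -8.67 to -0.17, adjusted p = 0.182), and by -6.40 (adjusted p = 0.0119) without graft BM-MSC 4.

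Genes with the pattern most like that of Eln over the 10 libraries, by Pearson's r of log2 values and with means of 100 or more, the other members left out, were Cerox1 (0.984), Celf2 (0.978), Pdlim1 (0.970), Car8 (0.969) and Pvr (0.967). Among the members, r to Eln was 0.980 for Fbln2, 0.894 for Fbn1, 0.793 for Mfap2 and 0.717 for Mfap4, and it was -0.667 for Fbln5. The points fall into the 3 groups, whose means carry most of these values.

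Fbn1 (ENSMUSG00000027204, GRCm38 chromosome 2, 125300594 to 125507993, minus strand) encodes fibrillin-1, the main structural protein of adult microfibrils and the gene mutated in Marfan syndrome. Its normalized read counts were 31379, 21048 and 34318 in P-SSCs, 4466, 4314 and 4581 in BM-MSCs, and 4674, 1092, 3309 and 6986 in graft BM-MSCs. The lowest P-SSC library was above the highest of the 7 marrow libraries, and steady-state marrow libraries lay close together while graft libraries spread around them. Fbn1 was 7.20-fold lower in graft BM-MSCs than in P-SSCs (log2 difference -3.10 ± 0.51, SE, adjusted p = 0.00184), a call that held in 24 of 24 alternative settings. It was 6.49-fold higher in P-SSCs than in BM-MSCs (2.67 ± 0.54, SE, adjusted p = 0.00964). Between graft BM-MSCs and BM-MSCs the difference was -0.43 (interval -1.56 to 0.69, adjusted p = 0.618), and it turned to 0.51 after a correction for GC content and to 0.10 without graft BM-MSC 2. Gm9913, annotated on the opposite strand, shares 2442 exonic bases with Fbn1 and had 0 to 56 reads per library.

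Fbn2 (ENSMUSG00000024598, GRCm38 chromosome 18, 58008623 to 58210487, minus strand) encodes fibrillin-2, which is used mostly in developing tissue. It ran the other way, with normalized read counts of 2.08, 2.55 and 0 in P-SSCs, 95, 448 and 374 in BM-MSCs, and 14.1, 3.37, 0 and 490 in graft BM-MSCs. In P-SSCs these were 4 reads over 3 libraries, at or under the floor, whereas BM-MSCs had 895 reads, a ratio of read rates of 213 (exact 95% interval 82.9 to 783, counting error only). Graft BM-MSC 4 was above the highest BM-MSC library and the other graft libraries were below the lowest. The Fbn2 difference between P-SSCs and BM-MSCs was -6.83 (interval -11.38 to -2.29, adjusted p = 0.0687) and did not pass the test. Without graft BM-MSC 4 its adjusted p was 0.0114, and without graft BM-MSC 3 it was 0.0432. Graft BM-MSCs differed from P-SSCs by 2.6 (interval -1.66 to 6.85, adjusted p = 0.382) and from BM-MSCs by -4.24 (interval -8.49 to 0.02, adjusted p = 0.198), and by -5.97 from BM-MSCs (adjusted p = 0.0310) without graft BM-MSC 4. The difference from P-SSCs passed in 1 of 24 alternative settings, with DESeq2, and was 0.87 to 6.4 over all 24.

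Fibrillin-1 made up nearly all fibrillin reads per kilobase in every library. The Fbn1 share of Fbn1 and Fbn2 was 99.99%, 99.99% and 100% in P-SSCs, 98.08%, 91.30% and 93.03% in BM-MSCs, and 99.72%, 99.72%, 100% and 93.95% in graft BM-MSCs. All P-SSC libraries were above all BM-MSC libraries, by 5.86 percentage points on average (two-sided exact permutation p = 0.1, the smallest that 3 against 3 libraries allow, 0.257 after adjustment over 3 comparisons). Graft BM-MSCs differed from BM-MSCs by 4.21 points (exact permutation p = 0.171, adjusted p = 0.257) and from P-SSCs by -1.65 points (exact permutation p = 0.543, adjusted p = 0.543). Without graft BM-MSC 4 the difference from P-SSCs was -0.181 points.

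Mfap2 (ENSMUSG00000060572, GRCm38 chromosome 4, 141010418 to 141015984, plus strand) encodes MAGP-1, a small glycoprotein bound along fibrillin microfibrils. Its normalized read counts were 6007, 9644 and 3186 in P-SSCs, 3549, 5127 and 3284 in BM-MSCs, and 2878, 1851, 2364 and 3843 in graft BM-MSCs. The 3 ranges overlapped one another, and P-SSC 4 was the lowest of the P-SSC libraries. No Mfap2 difference passed the test. Graft BM-MSCs differed from P-SSCs by -1.11 (interval -1.95 to -0.27, adjusted p = 0.0685), from BM-MSCs by -0.57 (interval -1.41 to 0.28, adjusted p = 0.376), and P-SSCs from BM-MSCs by 0.54 (interval -0.36 to 1.44, adjusted p = 0.649). Without P-SSC 4 the first of these was -1.53 with an adjusted p of 0.0117, while with the GC class in the fit it was -0.27.

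Mfap4 (ENSMUSG00000042436, GRCm38 chromosome 11, 61485431 to 61488900, plus strand) encodes a fibrinogen-domain glycoprotein of microfibrils. It measured 18717, 12029 and 10074 normalized read counts in P-SSCs, 1.04, 0 and 0.986 in BM-MSCs, and 0, 0, 39.3 and 1.73 in graft BM-MSCs. Every marrow library was at or near 0, with 2 reads over the 3 BM-MSC libraries and 41 over the 4 graft libraries, most of them in graft BM-MSC 3. The Mfap4 difference was -11.99 ± 1.43 (SE, adjusted p = 2.69e-04) between graft BM-MSCs and P-SSCs, a ratio of means of 1327. Without graft BM-MSC 3 the other graft libraries held 2 reads, a ratio of read rates of 28021 (exact 95% interval 7756 to 231384, counting error only). P-SSCs and BM-MSCs differed by 13.01 ± 1.52 (SE, adjusted p = 3.68e-04), a ratio of read rates of 19883 (exact 95% interval 5504 to 164188, counting error only). Graft BM-MSCs and BM-MSCs differed by 1.02 (interval -2.14 to 4.18, adjusted p = 0.681), and by -0.19 without graft BM-MSC 3. Mapk7, on the opposite strand, shares 89 exonic bases with Mfap4 and measured 0, 0, 1515 and 169 normalized read counts in graft BM-MSC 1 to 4. Mapk7 measured 509, 721 and 701 in BM-MSC 1, 2+4 and 3, in which Mfap4 had 1, 0 and 1 reads. Whether the libraries kept strand is not given in the sources used here, and the part of Mapk7 reads in the Mfap4 count was not tested.

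**Figure D2:**
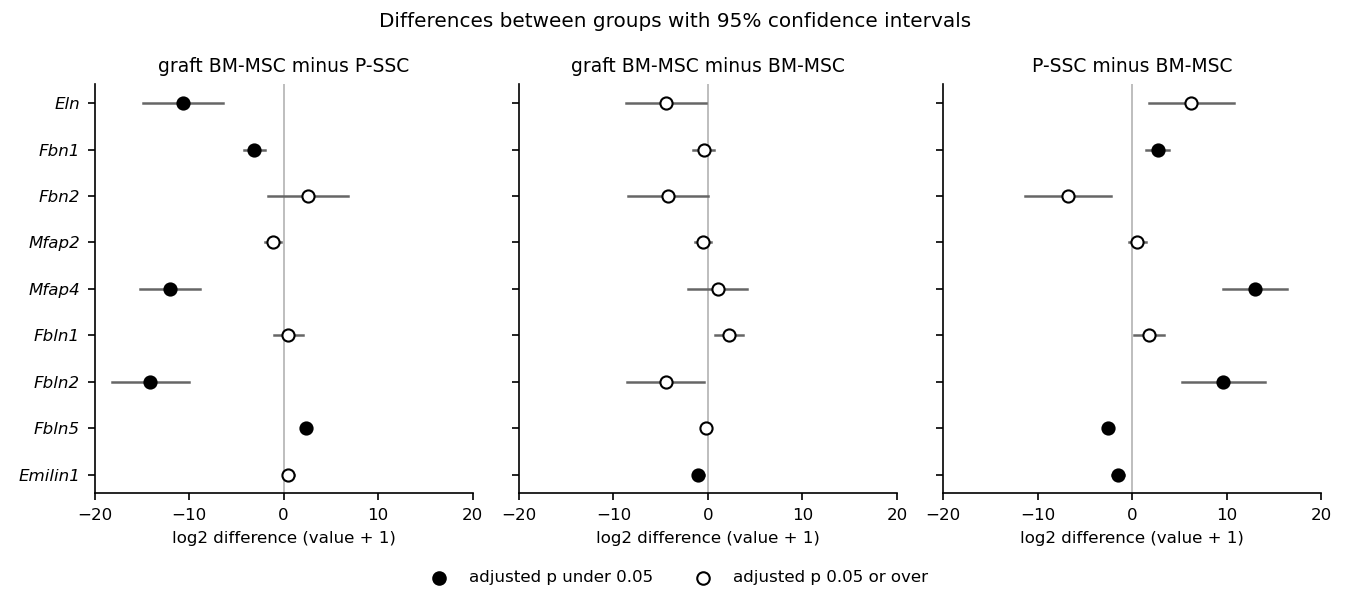
Log2 differences of value + 1 between group means (points) with 95% confidence intervals (lines) for the 9 genes in the 3 comparisons, with filled points where the limma adjusted p is under 0.05. In graft BM-MSCs against P-SSCs 4 filled points lie below 0 and Fbln5 above it, whereas against BM-MSCs Emilin1 has the one filled point.

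The fibulins are secreted proteins with calcium-binding EGF repeats that link elastin, fibrillin and cell surface receptors. The 3 fibulin members had 3 different patterns. Fbln2 was nearly restricted to P-SSCs, Fbln5 was high in both marrow populations, and Fbln1 was high in graft BM-MSCs and in P-SSC 4.

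Fbln2 (ENSMUSG00000064080, GRCm38 chromosome 6, 91212455 to 91272540, plus strand) encodes fibulin-2, found at the border of elastin core and microfibrils. Its normalized read counts were 72816, 78392 and 58763 in P-SSCs, 172, 238 and 15.8 in BM-MSCs, and 0, 0, 0 and 249 in graft BM-MSCs. It was abundant in every P-SSC library, low in BM-MSCs and without a read in 3 graft libraries. Fbln2 had the largest log2 difference of the members between graft BM-MSCs and P-SSCs in this fit, -14.09 ± 1.85 (SE, adjusted p = 4.59e-04), with a ratio of means of 1126. Without graft BM-MSC 4, which held every graft read, P-SSCs were at least 23167-fold higher, against 3 reads per library. It was 492-fold higher in P-SSCs than in BM-MSCs by the ratio of means, and 744-fold without BM-MSC 2+4 (9.61 ± 1.98, SE, adjusted p = 0.0101), with an adjusted p of 0.0793 by edgeR and of 0.0543 without BM-MSC 3. This call was lost in 5 of 24 alternative settings, a pseudocount of 0.1 among them, and the difference was 7.04 to 10.33 over all 24. Graft BM-MSCs and BM-MSCs differed by -4.48 (interval -8.58 to -0.38, adjusted p = 0.163), and by -6.47 (adjusted p = 0.00603) without graft BM-MSC 4.

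Fbln5 (ENSMUSG00000021186, GRCm38 chromosome 12, 101746565 to 101819055, minus strand) encodes fibulin-5, which binds tropoelastin and integrins and is required for elastic fibre assembly. Its normalized read counts were 11174, 7760 and 10598 in P-SSCs, 69492, 58209 and 46051 in BM-MSCs, and 56545, 37958, 46044 and 68880 in graft BM-MSCs. All 7 marrow libraries were above all 3 P-SSC libraries, and the ranges of the marrow groups overlapped widely. Fbln5 was 5.32-fold higher in graft BM-MSCs than in P-SSCs (2.39 ± 0.23, SE, adjusted p = 9.01e-05), a call that held in 24 of 24 alternative settings. It was 5.88-fold lower in P-SSCs than in BM-MSCs (-2.55 ± 0.25, SE, adjusted p = 1.36e-04). The difference between graft BM-MSCs and BM-MSCs was -0.16, with an interval of -0.68 to 0.36 (adjusted p = 0.694), and turned to 0.27 after quantile normalization and to 0.71 after the GC correction.

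Fbln1 (ENSMUSG00000006369, GRCm38 chromosome 15, 85205949 to 85286535, plus strand) encodes fibulin-1, a protein of elastic fibres and basement membranes. Its normalized read counts were 2119, 2298 and 17731 in P-SSCs, 1207, 1355 and 1385 in BM-MSCs, and 7529, 3064, 7094 and 9536 in graft BM-MSCs. P-SSC 4 was far above the other P-SSC libraries, and all graft libraries were above all BM-MSC libraries. Graft BM-MSCs were 5.17-fold above BM-MSCs by the ratio of means, and this difference of 2.26 (interval 0.77 to 3.75) did not pass the test (adjusted p = 0.0709). It passed in 7 of 24 alternative settings, with an adjusted p of 0.00460 without P-SSC 4, which enters the shared estimate of spread. With the GC class in the fit it was -0.75. No class holds both of these groups, so that this value rests on P-SSC 4 and cannot separate class from group. Graft BM-MSCs differed from P-SSCs by 0.51 (interval -0.98 to 2.00, adjusted p = 0.629) and by 1.51 (adjusted p = 0.0264) without P-SSC 4. With the GC class in the fit this difference was -1.50, which is that from P-SSC 4 alone. P-SSCs differed from BM-MSCs by 1.75 (interval 0.16 to 3.34, adjusted p = 0.204), and by 0.75 without P-SSC 4.

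Sequences before the transcription start were taken from RefSeq (GRCm38.p6) for 6 of the 9 members. Eln and Mfap4 had no entry, and 1 further member was not searched. The 250 bases before each start were searched on both strands for TATAAA (the TATA box), GGGCGG (the GC box), TGANTCA (AP-1), GGAATG (TEAD), TTGCNNAA (C/EBP) and CCCNNGGG (EBF). Of 32807 windows of this length before all starts, 12.4%, 32.7%, 6.75%, 12.6%, 9.57% and 11.8% held a match, in that order. The windows of Fbn1, Fbln2 and Emilin1 lie within annotated exons of GENCODE M21 and are not printed, and they held 1, 1 and 0 GC boxes and no match to the other motifs. Windows at the second starts of Mfap2 and Fbln1, which reach into exons, are not printed either and held 2 GC boxes, and 1 GC box and 1 CCCNNGGG. Windows that lie outside exons are shown for Fbln5, the member that was high in marrow, at both of its starts, and for comparison for Fbln1, which was high in the graft, and Mfap2, which was called in no comparison. Capitals mark matches. The first Fbln5 window lies within the gene outside its exons (chr12:101818485-101818733, minus strand, 249 bases), the second lies before the gene (chr12:101819120-101819369, minus strand), the Fbln1 window is at chr15:85205699-85205948 (plus strand) and the Mfap2 window at chr4:141010174-141010417 (plus strand, 244 bases).
Fbln5, first start: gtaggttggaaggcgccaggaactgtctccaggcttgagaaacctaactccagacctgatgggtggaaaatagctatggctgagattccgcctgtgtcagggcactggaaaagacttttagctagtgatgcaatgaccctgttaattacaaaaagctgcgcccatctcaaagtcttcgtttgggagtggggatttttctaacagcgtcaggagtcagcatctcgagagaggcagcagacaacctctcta
Fbln5, second start: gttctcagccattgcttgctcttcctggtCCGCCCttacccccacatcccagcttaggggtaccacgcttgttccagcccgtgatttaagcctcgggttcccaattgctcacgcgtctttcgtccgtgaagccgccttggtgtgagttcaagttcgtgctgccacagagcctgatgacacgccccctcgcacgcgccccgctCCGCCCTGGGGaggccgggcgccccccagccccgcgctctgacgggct
Fbln1: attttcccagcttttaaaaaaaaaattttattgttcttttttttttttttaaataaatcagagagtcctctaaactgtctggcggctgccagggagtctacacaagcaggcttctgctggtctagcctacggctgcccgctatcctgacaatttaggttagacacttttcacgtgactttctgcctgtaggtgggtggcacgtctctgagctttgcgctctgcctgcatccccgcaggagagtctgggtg
Mfap2: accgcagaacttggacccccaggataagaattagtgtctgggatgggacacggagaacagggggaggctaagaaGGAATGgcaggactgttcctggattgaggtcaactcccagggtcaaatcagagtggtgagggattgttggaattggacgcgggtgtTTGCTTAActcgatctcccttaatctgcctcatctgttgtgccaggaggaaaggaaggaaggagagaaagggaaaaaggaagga

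The second Fbln5 window held 2 GC boxes and 1 CCCNNGGG that overlaps one of them, and the first Fbln5 window and the Fbln1 window held none of the 6 motifs. The Mfap2 window held 1 GGAATG and 1 TTGCNNAA. A match is a stretch of letters and not a bound site, and these windows say nothing of which start is used in these cells.

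Emilin1 (ENSMUSG00000029163, GRCm38 chromosome 5, 30913402 to 30921277, plus strand) encodes EMILIN-1, a glycoprotein at the interface of elastin and microfibrils that binds fibulin-5. It measured 4520, 3636 and 4059 normalized read counts in P-SSCs, 10203, 15007 and 10454 in BM-MSCs, and 7577, 4996, 3930 and 7522 in graft BM-MSCs. Graft libraries lay below all BM-MSC libraries and overlapped with P-SSCs. Emilin1 was 2.92-fold lower in P-SSCs than in BM-MSCs (-1.53 ± 0.28, SE, adjusted p = 0.00561). It was 1.98-fold lower in graft BM-MSCs than in BM-MSCs (-1.02 ± 0.27, SE, adjusted p = 0.0444), and relative to the median gene the difference was -0.49. That call was lost in 15 of 24 alternative settings, with an adjusted p of 0.0773 by edgeR, 0.208 after the GC correction and 0.0965 after quantile normalization. The difference itself was -1.18 to -0.77 over the 24 settings. Graft BM-MSCs differed from P-SSCs by 0.51 (interval -0.08 to 1.10, adjusted p = 0.211). This difference passed in 1 of 24 alternative settings, after quantile normalization, and was 0.38 to 1.01 over all 24.

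Per kilobase of exon, the members had a different order in periosteum and marrow. In P-SSCs Fbln2 led with 523 ± 27.5 RPKM (reads per kilobase of exon and 1e6 reads, SD, n = 3), above Mfap4 (338 ± 109) without overlap. Mfap2 (240 ± 102), Fbn1 (116 ± 38.4), Fbln1 (87.4 ± 112), Fbln5 (69.1 ± 18.0) and Eln (67.9 ± 23.5) followed, and from Mfap4 to Eln each overlapped with its neighbour in this order. Emilin1 (39.7 ± 6.89) and Fbn2 (0.00527 ± 0.00458) came last and did not overlap with their neighbours. In BM-MSCs Fbln5 led with 443 ± 101 RPKM (SD, n = 3) and did not overlap with the next. Mfap2 (172 ± 31.3) and Emilin1 (126 ± 19.7) overlapped with each other, Fbn1 (19.4 ± 1.74) and Fbln1 (15.9 ± 1.12) followed without overlap, and Eln (1.65 ± 1.84), Fbn2 (1.19 ± 0.693) and Fbln2 (1.15 ± 0.898) overlapped above Mfap4 (0.0193 ± 0.0167). Graft BM-MSCs also had Fbln5 first, at 517 ± 143 RPKM (SD, n = 4), and Mfap2 second (154 ± 51.0), followed by Fbln1 (106 ± 43.5) and Emilin1 (83.3 ± 27.8), which overlapped with one another in that order. Below Fbn1 (22.7 ± 14.3), the graft values of Eln, Fbln2, Fbn2 and Mfap4 were 0.888, 0.675, 0.665 and 0.345 RPKM and overlapped.

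Summed over the 9 members, reads were 6204 to 8153 ppm in P-SSCs, 3580 to 4938 in BM-MSCs and 3324 to 6778 in graft BM-MSCs. Of the summed reads per kilobase, Fbln5 held 4.63% ± 0.987 (SD, n = 3) in P-SSCs, 56.5% ± 6.63 (n = 3) in BM-MSCs and 58.9% ± 2.40 (n = 4) in graft BM-MSCs. Fbln2 held 35.4% ± 3.05 in P-SSCs, and at most 0.227% in any marrow library. Mfap4 and Eln held 22.6% ± 5.95 and 4.57% ± 1.48 in P-SSCs, and at most 0.180% and 0.461% in any marrow library. The composition of graft libraries was close to that of BM-MSC libraries for Fbln5 and Fbn1. The shares did not overlap for Fbln1, which held 7.95% to 14.3% in the graft and 1.75% to 2.59% in BM-MSCs, for Emilin1, which held 7.03% to 11.5% and 13.1% to 18.4%, and for Mfap2, which held 16.7% to 18.1% and 18.6% to 25.6%.

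**Figure D3:**
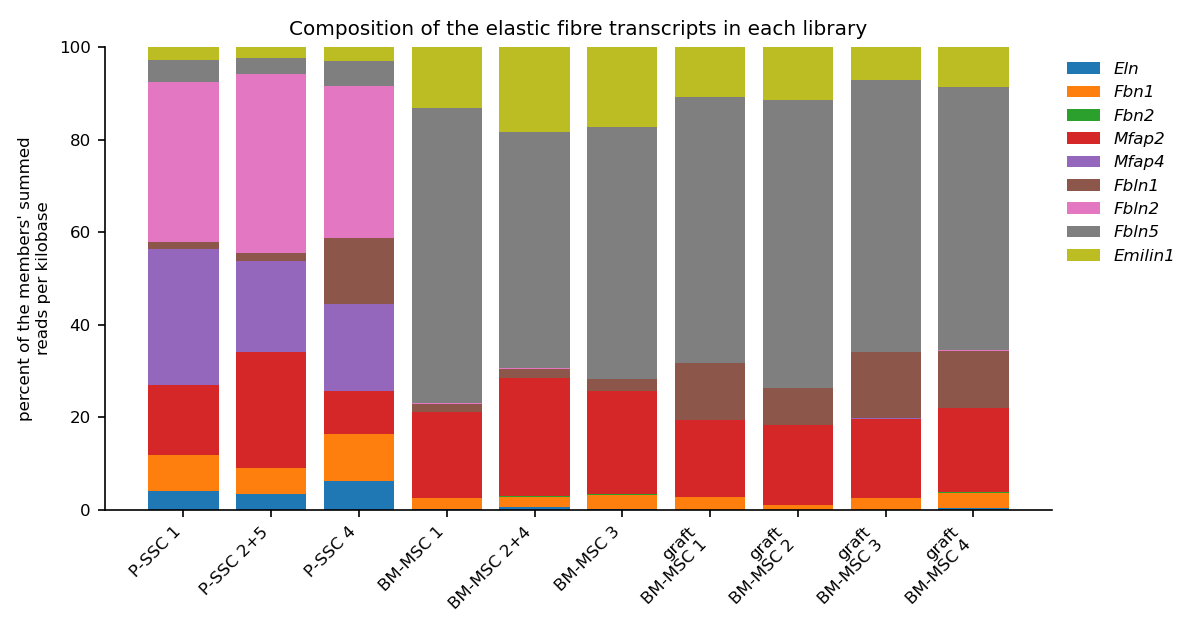
Percent of the members' summed reads per kilobase of exon that each of the 9 genes holds, as stacked bars from 0 to 100, with 1 bar per library. Fbln2 and Mfap4 fill about as much of the 3 P-SSC bars as Fbln5 does of the 7 marrow bars, and Fbln1 is taller in the 4 graft bars and in P-SSC 4 than elsewhere.

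Within the GC class of the libraries, differences between P-SSCs and BM-MSCs could be taken from P-SSC 1 and 2+5 against the 3 BM-MSC libraries, and those between graft BM-MSCs and P-SSCs from the 4 graft libraries against P-SSC 4 alone. Fbn1, Mfap4, Fbln2, Fbln5 and Emilin1 differed between P-SSCs and BM-MSCs by 2.53, 13.20, 9.74, -2.62 and -1.53 within the class, close to the values over all libraries. Eln, Fbn1, Mfap4, Fbln2 and Fbln5 differed between graft BM-MSCs and P-SSC 4 by -11.04, -3.38, -11.60, -13.85 and 2.27. For graft BM-MSCs against BM-MSCs no class held both groups. GC content of the longest annotated transcript was 46.9% for Fbln5 and 52.3% to 61.1% for the other members, with a median of 49.7% over all genes tested.

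Sums of markers of other cell types were higher in P-SSCs, as were Eln, Fbn1, Mfap4 and Fbln2. Adventitial fibroblast markers (Pi16, Cd34, Dpp4, Ly6a and Clec3b) summed to 11638 to 20288 ppm in P-SSCs, 5.54 to 10 in BM-MSCs, where Dpp4 was at 0, and 16.8 to 71.5 in graft BM-MSCs, where Cd34 was at 0. Smooth muscle and pericyte markers (Acta2, Myh11, Tagln, Cnn1, Des and Rgs5) summed to 572 to 1268 in P-SSCs, 55.0 to 379 in BM-MSCs and 127 to 277 in graft BM-MSCs, where Cnn1 was at 0. Acta2 and Myh11 were highest in P-SSCs, whereas Rgs5 measured 86.2 to 128 normalized read counts in P-SSCs and 266 to 1437 in BM-MSCs, and Des 442 to 1791 and 747 to 1105. Tagln measured 3.88 to 28.0 in P-SSCs, 1.97 to 3.13 in BM-MSCs and 96.6, 0.843, 0 and 164 in graft BM-MSC 1 to 4. Tendon markers (Scx, Tnmd, Mkx and Kera) summed to 328 to 418 ppm, 4.85 to 8.14 and 0 to 24.4, with Kera at 0 in both marrow groups. Mkx did not follow the sum, with normalized read counts of 128 to 168 in P-SSCs, 69.0 to 128 in BM-MSCs and 0 to 276 in graft BM-MSCs. Scx measured 18.7, 3.82 and 798 in P-SSC 1, 2+5 and 4, and at most 20.7 in any marrow library. Of the endothelial markers, 3 of 5 were in the table (Cdh5, Emcn and Tek), and they summed to 174 to 327 ppm in P-SSCs, where Emcn was at 0, to 1.19 to 4.56 in BM-MSCs and to 0 in every graft library. Tek made up nearly all of that sum, with 3254 to 6869 normalized read counts in P-SSCs, and Emcn was higher in BM-MSCs, at 24.3 to 81.5. The part of these cell types in the levels of Eln, Fbn1, Mfap4 and Fbln2 was not tested. On the marrow side, chondrocyte markers (Acan, Col2a1, Col9a1, Matn3 and Cnmd) summed to 1828 to 3614 ppm in BM-MSCs, 0 to 247 in graft BM-MSCs and 32.2 to 74.0 in P-SSCs, and osteoblast markers (Bglap, Ibsp, Sp7 and Alpl) to 11678 to 12634, 3667 to 4546 and 332 to 889. Acan, Col9a1, Matn3 and Cnmd were at 0 in every graft library. Emilin1 was also higher in BM-MSCs than in both other groups, and the part of these cell types in it was not tested. Neutrophil markers (S100a8, S100a9, Mpo, Ngp, Camp and Ltf) summed to 1442 to 4643 in BM-MSCs, 395 to 6861 in graft BM-MSCs and 0.672 to 5.20 in P-SSCs, and macrophage markers (Adgre1, Csf1r, Cd68, C1qa and Lyz2) to 219 to 884, 96.4 to 851 and 21.7 to 98.6. The hemoglobin genes and Alas2 summed to 2862 to 11069 in BM-MSCs, 104 to 1865 in graft BM-MSCs and 9.60 to 75.0 in P-SSCs, and the part of blood cells in the marrow values was not tested. Skeletal muscle markers (4 of 5 in the table) were at 14.8 to 58.7 in P-SSCs and at most 10.8 elsewhere. Of the sort gate genes, Cd200 had reads in every library, Itgav measured 82.6 to 1095 normalized read counts, and Ptprc, which encodes CD45, was at 0 in P-SSCs and reached 196 in graft BM-MSC 3.

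Other genes of the pathway were listed as 60 symbols in 8 lists, with Thsd4 also under its other name Adamtsl6, and 53 were tested. Where they were called, they were mostly lower in graft BM-MSCs than in P-SSCs, with 20 lower, 5 higher and 28 not called. Against BM-MSCs 2 were lower, 4 higher and 47 not called, and in P-SSCs against BM-MSCs 15 were higher, 4 lower and 34 not called. Of all genes tested, the shares called lower and higher were 12% and 6.08%, 5.06% and 2.61%, and 4.58% and 4.57% in these comparisons. Median log2 differences of these lists were -1.26, -0.37 and 1.33, and of the 9 members -1.11, -0.57 and 1.75, beside -0.47, -0.53 and 0.00 over all genes tested.

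**Figure D4:**
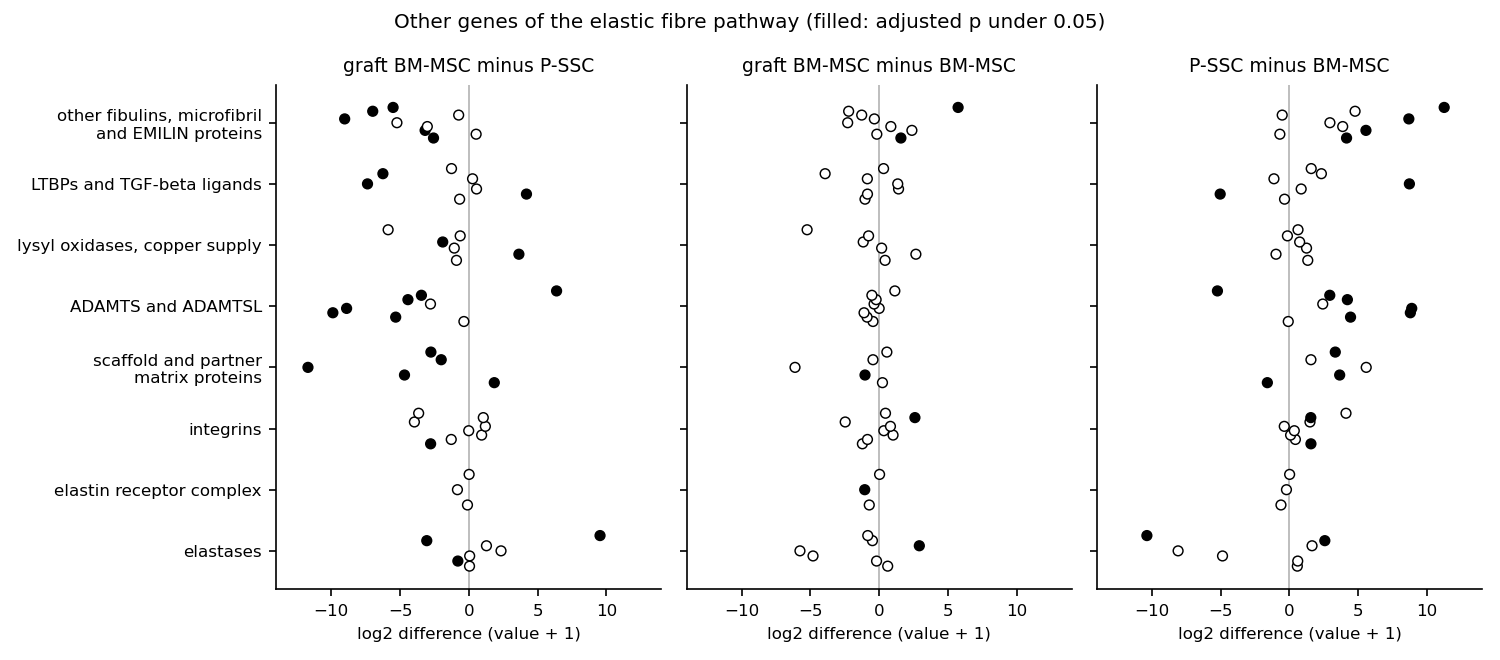
Log2 differences of value + 1 for 53 other genes of the elastic fibre pathway in 8 lists (rows) and 3 comparisons (panels), with 1 point per gene, filled where the limma adjusted p is under 0.05. Filled points lie mostly below 0 in graft BM-MSCs against P-SSCs (20 of 25) and above 0 in P-SSCs against BM-MSCs (15 of 19), and 6 are filled in graft BM-MSCs against BM-MSCs.

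Among the other fibulins, microfibril-associated and EMILIN genes (9 tested), 5 were lower in graft BM-MSCs than in P-SSCs, 2 were higher than in BM-MSCs, and 4 were higher in P-SSCs than in BM-MSCs, with 12%, 2.61% and 4.57% of all genes. Mfap5, which encodes the partner glycoprotein of MAGP-1, measured 77583, 112571 and 44374 normalized read counts in P-SSCs, 55.4, 39.0 and 10.8 in BM-MSCs, and 8948, 105, 1155 and 5870 in graft BM-MSCs. The graft values lay between the other groups without overlap. Mfap5 was lower in graft BM-MSCs than in P-SSCs (-5.51 ± 1.29, SE, adjusted p = 0.0138), higher than in BM-MSCs (5.74 ± 1.29, SE, adjusted p = 0.0259), and higher in P-SSCs than in BM-MSCs (11.25 ± 1.38, SE, adjusted p = 4.81e-04). Efemp1, which encodes fibulin-3, was likewise intermediate, at 29332 ± 9743 (SD, n = 3) in P-SSCs, 1648 ± 528 (n = 3) in BM-MSCs and 5058 ± 2086 (n = 4) in graft BM-MSCs, and was higher in the graft than in BM-MSCs by 1.58 ± 0.36 (SE, adjusted p = 0.0266). Hmcn2, the large fibulin hemicentin-2, had no read in the graft. Its level there was at least 195-fold lower than in P-SSCs, with a floor of 3 reads per library. Mfap3l was lower in graft BM-MSCs than in P-SSCs (-6.99 ± 1.28, SE, adjusted p = 0.00361), and Emilin2 was higher in P-SSCs than in BM-MSCs (5.56 ± 1.01, SE, adjusted p = 0.00501). Efemp2, which encodes fibulin-4 and is required for elastin cross-linking, measured 6487 to 12229 in P-SSCs, 11583 to 17189 in BM-MSCs and 10196 to 15591 in graft BM-MSCs and was not called in any comparison. It is named after its values were seen.

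The latent TGF-beta binding proteins attach TGF-beta to microfibrils and help elastin assembly. Of 7 genes of this list, 1 was higher and 2 lower in graft BM-MSCs than in P-SSCs, and 1 was higher and 1 lower in P-SSCs than in BM-MSCs. For all genes the shares were 6.08% and 12%, and 4.57% and 4.58%, and counts of 1 or 2 of 7 are too few to set apart from them. Ltbp2 was higher in graft BM-MSCs than in P-SSCs (4.19 ± 0.86, SE, adjusted p = 0.00672) and lower in P-SSCs than in BM-MSCs (-5.04 ± 0.92, SE, adjusted p = 0.00502). Ltbp4, the fibulin-5 partner, measured 4320, 3881 and 45857 in P-SSCs, 151, 4.22 and 11.8 in BM-MSCs, and 101, 0, 877 and 104 in graft BM-MSCs. P-SSC 4 was the highest, as for Fbln1. Ltbp4 was lower in graft BM-MSCs than in P-SSCs (-7.37 ± 2.07, SE, adjusted p = 0.0324), and Tgfb2 was lower too (-6.25 ± 1.87, SE, adjusted p = 0.0427).

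Of the lysyl oxidases, which cross-link elastin and collagen, Lox measured 276, 130 and 2177 in P-SSCs, 1149, 717 and 731 in BM-MSCs, and 3878, 3765, 5235 and 10827 in graft BM-MSCs. All graft libraries were above all other libraries. Lox was higher in graft BM-MSCs than in P-SSCs (3.64 ± 0.80, SE, adjusted p = 0.00986), and its difference from BM-MSCs did not pass the test. Loxl2 was lower in graft BM-MSCs than in P-SSCs (-1.90 ± 0.49, SE, adjusted p = 0.0218), and the other 4 genes of the list were called in no comparison. Between graft BM-MSCs and P-SSCs, 6.08% of all genes were called higher and 12% lower. Counts of 1 of 6 are too few to set apart from these shares.

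Of 8 ADAMTS and ADAMTSL genes tested, whose products bind fibrillin, 5 were lower and 1 higher in graft BM-MSCs than in P-SSCs, and 5 were higher and 1 lower in P-SSCs than in BM-MSCs, beside 12% and 6.08%, and 4.57% and 4.58%, of all genes. Adamtsl2, the gene of geleophysic dysplasia, had no read in any marrow library. With the same floor, P-SSCs were at least 235-fold higher than graft BM-MSCs and at least 224-fold higher than BM-MSCs. Adamtsl1 was lower in graft BM-MSCs than in P-SSCs (-9.89 ± 1.77, SE, adjusted p = 0.00306). Thsd4, also named Adamtsl6, ran the other way and was higher in graft BM-MSCs than in P-SSCs (6.38 ± 1.22, SE, adjusted p = 0.00462).

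All 5 scaffold and partner matrix genes differed between graft BM-MSCs and P-SSCs, 4 of them lower in the graft, beside 12% of all genes called lower. Fn1, which encodes the fibronectin that fibrillin assembly needs, measured 157577, 118758 and 104987 in P-SSCs and 1495, 0, 0 and 1327 in graft BM-MSCs (-11.70 ± 2.5, SE, adjusted p = 0.00840), and is also among the periosteal markers above. Dcn (decorin) was lower in graft BM-MSCs than in P-SSCs (-4.68 ± 0.27, SE, adjusted p = 3.21e-06) and than in BM-MSCs (-1.03 ± 0.27, SE, adjusted p = 0.0422). Vcan (versican), which binds fibrillin, was lower than in P-SSCs (-2.76 ± 0.60, SE, adjusted p = 0.00906). Bgn (biglycan) was the gene that was higher in the graft (1.85 ± 0.19, SE, adjusted p = 1.28e-04), named for that count after its values were seen, and lower in P-SSCs than in BM-MSCs (-1.61 ± 0.21, SE, adjusted p = 5.96e-04).

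Of 8 integrin genes, 1 was lower in graft BM-MSCs than in P-SSCs, 1 was higher than in BM-MSCs and 2 were higher in P-SSCs than in BM-MSCs, beside 12%, 2.61% and 4.57% of all genes, and 1 of 8 is near that background. Itga5, part of the fibronectin receptor, was lower in graft BM-MSCs than in P-SSCs (-2.78 ± 0.40, SE, adjusted p = 8.33e-04). Itgb5 was higher in graft BM-MSCs than in BM-MSCs (2.6 ± 0.39, SE, adjusted p = 0.00456), at 3761 to 5833 against 534 to 936. It measured 1457, 1641 and 4423 in P-SSC 1, 2+5 and 4, of which P-SSC 4 shares the GC class of the grafts. In the elastin receptor complex, Glb1, whose splice form binds elastin, was lower in graft BM-MSCs than in BM-MSCs (-1.05 ± 0.26, SE, adjusted p = 0.0391) and was the only call among the 3 genes and 3 comparisons of that list. Of all genes 5.06% were called lower in that comparison, and 1 of 3 is too few to set apart from this share. Among 7 genes of enzymes that can cut elastin, 2 were lower and 1 higher in graft BM-MSCs than in P-SSCs, beside 12% and 6.08% of all genes. Compared with BM-MSCs 1 was higher, beside 2.61%, and these counts are too few to set apart from the shares. Mmp2 was lower in graft BM-MSCs than in P-SSCs (-3.06 ± 0.41, SE, adjusted p = 5.57e-04), and Mmp9 was higher (9.54 ± 0.75, SE, adjusted p = 2.57e-05). Mmp9 measured 0, 0 and 5.82 normalized read counts in P-SSCs, 1531 to 3877 in BM-MSCs and 979 to 1697 in graft BM-MSCs. Mmp14 was higher in graft BM-MSCs than in BM-MSCs (2.92 ± 0.66, SE, adjusted p = 0.0259), at 8931, 4549, 7665 and 7558 against 1089, 850 and 842. In P-SSC 1, 2+5 and 4 it measured 1326, 1459 and 12175, highest in the library that shares the GC class of the grafts.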

How the data were processed

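Per the labels, mRNA from the total RNA of sorted cells was purified with poly-T beads and sequenced. By the submitters' processing notes, the authors aligned reads with STAR 2.5 after cutadapt 1.15, counted them with featureCounts (Subread 1.4.6) and deposited the normalized signal of DESeq2 1.26.0, which is the read count divided by the size factor of its library. These notes name GRCm39, and the study's methods GRCm38 and another version of STAR. Coordinates here are those of GENCODE M21 (GRCm38), looked up by Ensembl ID (99.8% found). Of the nonzero values, 100% were whole multiples of 1 read within 0.01, and depth was taken from these reads.

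The named genes and lists were chosen with earlier results of these data known. Values were tested as log2(value + 1) with limma 3.58.1 (R 4.3.3, trended eBayes, two-sided, 3 group means over 10 libraries, 7 residual degrees of freedom) for genes with a mean of at least 10, adjusted by Benjamini-Hochberg over 13644 genes. The test design had assumed normalized counts. Of the other lists, at most 3 genes a list and comparison were named, those with the largest change among calls without overlap between groups. Likeness to Eln was ranked among genes with a mean of at least 100. RPKM used the union of exons. Alternatives were edgeR 4.0.16 and DESeq2 1.42.0 on the recovered reads, other scalings, pseudocounts (0.1 and 5) and filters, a GC correction, the GC class of the library or the replicate number as a term, and each library left out. The limma step was tested on simulated data. P-values measure the spread between libraries, and intervals of reads cover counting error only. One marker gene is not reported here.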

Additional observations from a re-analysis of the deposited data

Results flagged for a closer look

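In the graft BM-MSC group (n = 4) 1 library stood apart from the other 3 for 4 of the 9 members, by Dixon's ratio of the gap to the range at its 95% limit. Chance sets about 1 in 20 groups of normally distributed values apart in this way. That rate does not hold here, since with the other libraries at or near 0 a single library with reads gives a ratio near 1 whatever its level, and the values are given as a description. Eln had 412 normalized read counts in graft BM-MSC 4 and at most 3.95 in the other graft libraries (ratio 0.990). Fbn2 had 490 in graft BM-MSC 4 and at most 14.1 in the others (ratio 0.971). Fbln2 had 249 in graft BM-MSC 4 and no read in the others (ratio 1.00). Mfap4 had 39.3 in graft BM-MSC 3 and at most 1.73 in the others (ratio 0.956). Postn, the gene whose promoter drives the label, had 235 in graft BM-MSC 4 and 0 in the other 3 graft libraries. No cause of these values was tested.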

How the results depend on the processing

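Of the 5 members called between graft BM-MSCs and P-SSCs, Fbn1 and Fbln5 kept their call in 24 of 24 alternatives. Eln lost it with edgeR, with the GC class as a term and with either replicate block, and Mfap4 and Fbln2 with either replicate block. Over the 24 alternatives these differences were -12.66 to -6.66 (Eln), -13.8 to -10.35 (Mfap4) and -16.59 to -10.03 (Fbln2). The count of members called was 5 to 7 over the fits that left out 1 library. Between graft BM-MSCs and BM-MSCs (1 called) it was 2 after median centring, 0 with edgeR, 2 with DESeq2 and 0 with the GC class as a term, and 0 to 4 over the fits that left out 1 library, with 4 without graft BM-MSC 4 (Eln, Fbn2, Fbln2 and Emilin1). After quantile normalization, with only the 2 groups compared, after the GC correction and with 8 libraries the 1 member called was Fbln1 in place of Emilin1. The fit to 8 libraries, without graft BM-MSC 2 and P-SSC 4, was chosen after seeing the data. Between P-SSCs and BM-MSCs (5 called) leaving out 1 library gave 4 to 7.

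Libraries with the same replicate label did not deviate together (correlations of -0.02 to 0.03). Pairs that share a number through a combined library had correlations of -0.07 to 0.08. With so few libraries these values cannot decide if same-numbered libraries share a mouse or a batch. With the replicate block 2, 0 and 0 members were called in the 3 comparisons, as with the GC correction and the replicate block together, and 269, 3 and 54 of all genes tested compared with 2464, 1046 and 1248 in the reported fit (416, 2 and 77 with both). Over all genes edgeR called 1531, 316 and 619, DESeq2 called 1947 between the marrow groups, and the GC class as a term left 1081 and 40 in the comparisons with grafts. Leaving out 1 library gave 1583 to 3005, 476 to 1584 and 917 to 1495.

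Differences that were not called and turned sign were, between graft BM-MSCs and P-SSCs, those of Mfap2 (0.18 with the GC correction and replicate block) and Fbln1 (-0.07 with edgeR, -0.11 with DESeq2, -1.50 with the GC class, -0.02 without P-SSC 1). Between graft BM-MSCs and BM-MSCs they were those of Fbn1 (0.51 with the GC correction, 0.76 with the replicate block added, 0.10 without graft BM-MSC 2 and with 8 libraries), Mfap2 (0.69 with the GC class, 0.22 with the GC correction and replicate block), Mfap4 (-0.19 without graft BM-MSC 3), Fbln1 (-0.75 with the GC class) and Fbln5 (0.27 after quantile normalization, 0.71 with the GC correction, 0.74 with the replicate block added). Leaving out 1 library moved these differences within -0.02 to 1.51 (Fbln1, the higher without P-SSC 4), -0.79 to 0.10 (Fbn1) and -0.19 to 1.59 (Mfap4). The cause was not tested. With the GC class as a term, the comparisons with grafts rest on P-SSC 4, since no class held graft BM-MSCs and BM-MSCs together. The median gene of the comparisons with grafts, at -0.47 and -0.53, was at -0.02 and -0.17 after quantile normalization and at 0.29 and 0.24 after the GC correction. The Fbn1 share of fibrillin reads differed between graft BM-MSCs and BM-MSCs by 2.79 to 6.18 points when 1 library was left out. Values at or under 3 reads, such as Fbn2 in P-SSCs, allow no fold beyond the counting interval given.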
